A study of Mus musculus with 14 samples.

Results

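Small noncoding RNAs of the nucleolus, the Cajal body and the spliceosome were examined in total RNA from the cortex of Fmr1 knock-out and control mice. The members were all genes of the deposited count table whose symbol starts with Snora, Snord, Scarna or Rnu, plus Rpph1 and Rmrp. They numbered 126 of 23412 genes: 36 Snora, 74 Snord, 9 Scarna and 5 Rnu genes and the 2 single genes. The controls carried Rpl22flox/flox;CamKCre+, and the knock-outs (KO) carried Fmr1X-Y on top of the same Rpl22flox/flox;CamKCre+ background. The floxed Rpl22 allele and the Cre were therefore shared by both genotypes, and the CamK promoter of the Cre is used to target forebrain excitatory neurons. The RNA came from whole lysates, so every cell type of the tissue contributed to it. There were 4 control libraries (mice 1, 3, 6 and 8) and 4 KO libraries (mice 2, 4, 5 and 7), and the age of the mice was not given in the sources used here. Of the members, 0 had a value in the columns of the 6 ribosome footprint libraries, so all results are from RNA.

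Small nucleolar RNAs (snoRNAs) pair with ribosomal RNA and guide enzymes to single bases of it. C/D box snoRNAs, named Snord, guide ribose methylation, and H/ACA box snoRNAs, named Snora, guide conversion of uridine to pseudouridine. Scarna genes encode the related guides of the Cajal body, which modify spliceosomal RNAs. Most snoRNAs of mammals are cut from introns of other genes, their hosts, after splicing. Rnu genes encode spliceosomal and related small nuclear RNAs, Rpph1 is the RNA of RNase P, which trims the front end of precursor tRNA, and Rmrp is the RNA of RNase MRP, which takes part in cutting precursor ribosomal RNA.

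Sequences of 3 miRNA hairpins that overlap Scarna genes in RefSeq (GRCm38.p6) are shown because they hold stretches of members of this set. Mir3069 and Mir1843b lie wholly inside their member, and Mir1843a has 64 of its 65 bases inside. Capitals mark an ACA in the last 6 bases, the triplet that also ends H/ACA box RNAs. Of the 1005 mouse hairpins in the same RefSeq table, 10.8% had ACA in their last 6 bases.
Mir3069 in Scarna13, chr12:105031077-105031141, minus strand: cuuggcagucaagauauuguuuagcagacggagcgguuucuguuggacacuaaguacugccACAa
Mir1843b in Scarna3a, chr1:159340358-159340423, plus strand: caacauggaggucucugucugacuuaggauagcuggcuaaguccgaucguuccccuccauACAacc
Mir1843a in Scarna3b, chr12:80391613-80391677, minus strand: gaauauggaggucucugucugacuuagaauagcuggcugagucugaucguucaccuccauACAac
The hairpins of Scarna3a and Scarna3b had 59 identical bases in an alignment of 66 columns, so the 2 genes share closely similar sequence. Reads of such related genes may be split between them, and how the authors' counting treated reads with several matches is not given in the sources used here.

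The exon columns held 16351772 to 20793293 counts per library, and the members took 0.327% to 0.782% of them. As a check of the labels, Fmr1, which encodes the RNA-binding protein FMRP, was at 96.5 ± 13.1 CPM (counts scaled to the library total; SD, n = 4) in controls and 25.6 ± 2.06 in KO (log2 fold change -1.91 ± 0.095 SE, edgeR adjusted p = 5.01e-07). Rpl22, whose allele is floxed in both genotypes, was at 77.0 ± 12.4 and 68.9 ± 16.7 CPM (edgeR adjusted p = 0.531). The libraries of KO mice 2, 4 and 7 were closer to each other than any other pair. Chi-square per degree of freedom was 1.2 to 1.5 among these 3, 3.04 between control mice 1 and 3, and 5.42 to 18.4 for the other pairs of one genotype. Nothing in the labels says that these libraries share an animal, and results are given below with them as separate libraries and with their counts summed. In the tissue marker lists, 4 of 8 tested hypothalamic genes were lower in KO by edgeR, among them Hcrt (log2 fold change -3.49, at 0 counts in KO mouse 5) and Pmch (-3.27), and the summed level of the list was 39.9 to 62.2 CPM in controls and 22.3 to 24.5 CPM in KO. Markers of excitatory neurons summed to 3192 to 3698 CPM in controls and 3938 to 4127 CPM in KO, and 1 of 9, Camk2a, was called higher. Of the choroid plexus markers 0 of 5 tested were called by edgeR or DESeq2 (1 lower at an unadjusted p under 0.05), as were 0 of 8 endothelial markers (0 at that p), and 2 of 8 oligodendrocyte and 2 of 8 astrocyte markers were called lower. The oligodendrocyte list summed to 7854 to 8183 CPM in controls and 7087 to 7167 CPM in KO, without overlap. In the other lists edgeR called Slc32a1 higher and Pvalb lower (inhibitory neurons), C1qb lower (microglia) and Adora2a higher (striatum). Control mouse 8 and KO mouse 5 stood apart in markers that were not called between genotypes. The choroid plexus list summed to 12.3, 16, 20.4 and 215 CPM in controls 1, 3, 6 and 8 and to 9.93, 8.71, 91.0 and 11.8 CPM in KO 2, 4, 5 and 7, most of it from Ttr (193 CPM in control 8 and 73.6 in KO 5). The endothelial list summed to 226, 219, 166 and 125 CPM in controls and 222, 219, 142 and 212 CPM in KO, lowest in the same 2 libraries. The part of tissue composition in the results below was not tested.

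Small RNAs of this set were lower in KO than in control cortex. Of the 126 members, 109 had at least 1 count in the 8 RNA libraries and 44 passed the filter on low counts and were tested. Of these 44, 32 were called lower (edgeR, adjusted p under 0.05) and 0 were called higher. At an unadjusted p under 0.05 edgeR gave 36 lower and 0 higher, and DESeq2 called 31 lower and 0 higher. Over all 14566 genes tested, 4.35% were called lower, 4.21% were called higher and 8.55% were called in either direction. The median log2 fold change was -1.63 for the 44 tested members and 0.0018 for all tested genes. Among the 63 genes of the whole table that were called lower by more than 1 on the log2 scale, 30 were members. In these bulk libraries, fewer cells of a type and less RNA per cell cannot be told apart. Differences between libraries in the recovery of short RNA were not tested.

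**Figure D1:**
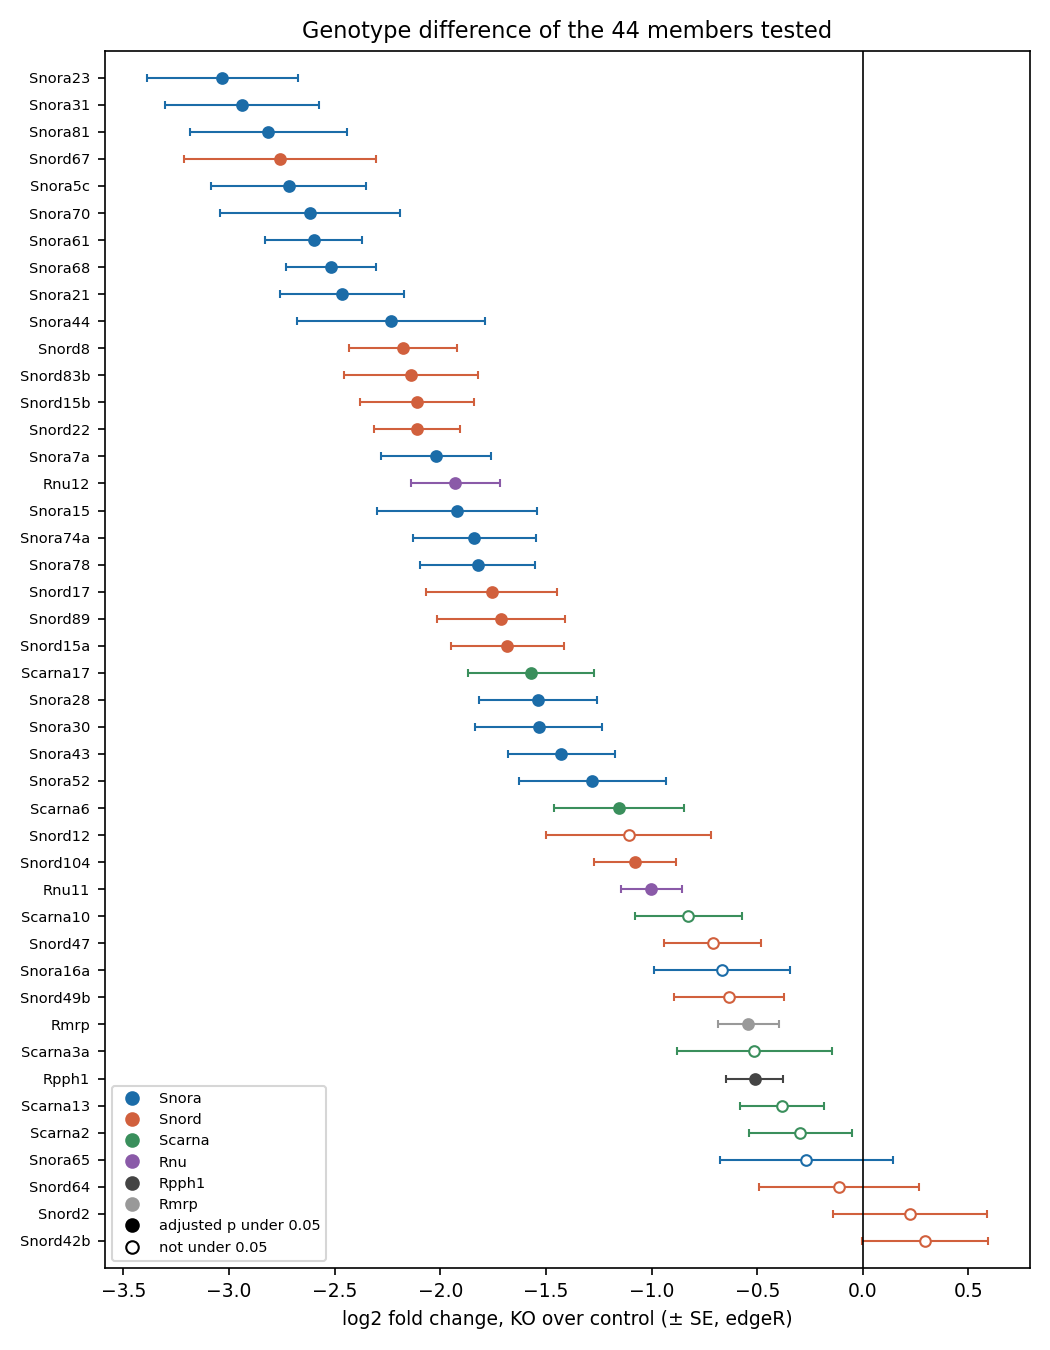
Log2 fold change of KO over control (x axis) with its standard error from edgeR for the 44 members tested (y axis, one row per gene, ordered by value). Filled points passed adjusted p under 0.05 and open points did not; all 32 filled points are at or below -0.51, and Snord2 and Snord42b are the members above 0.

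Because the filter keeps a gene that is high in one genotype only, the members that passed it are a selected set. Of the 44, 37 had at least 10 counts in every control library and 26 had at least 10 in every KO library, and 21 of these 26 were called lower. Without any filter on low counts, all 109 members with a count could be fitted: 89 were lower in KO, 34 were called lower and 0 higher, against 3.13% of 19173 genes called lower in that fit. The median log2 fold change was -0.82 over these 109 members and -0.0099 over all genes fitted. The 17 members with no count in any library, among them Rnu6, Rnu7 and Snord118, gave no measurement. The other 65 members with counts were too low to test, and together they summed to 14.3 ± 4.08 CPM in controls and 8.92 ± 1.4 CPM in KO (SD, n = 4).

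In 31 of the 44 tested members every KO library was below every control library, and this was so in 8.09% of all tested genes. Among the 32 members called, Rmrp and Scarna6 were the ones whose genotypes overlapped. Snord49b was lower in every KO library but was not called (edgeR adjusted p = 0.157).

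H/ACA box RNAs had the lowest KO level relative to control of the 4 symbol classes. Summed over the 36 Snora genes, the control libraries of mice 1, 3, 6 and 8 were at 113, 98.4, 79.1 and 48.1 CPM. The KO libraries of mice 2, 4, 5 and 7 were at 21.6, 22.3, 20.3 and 22.9 CPM. The controls were spread over a 2.35-fold range and the KO over 1.13-fold, and the lowest control was 2.11-fold above the highest KO. The KO mean was 25.7% of the control mean, and 17 of 19 tested Snora genes were called lower.

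**Figure D2:**
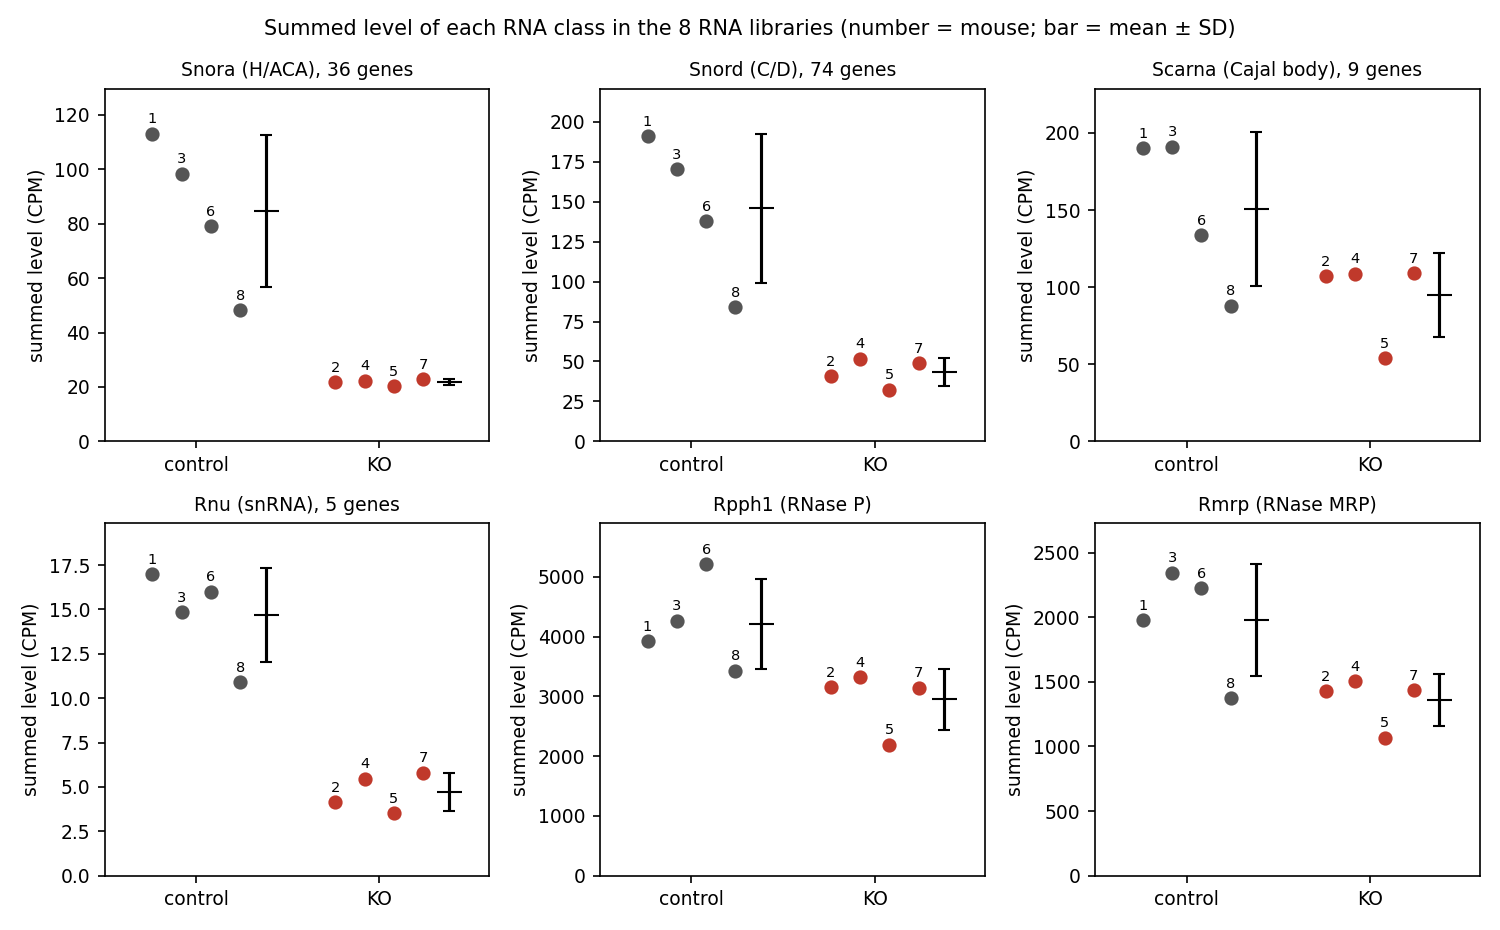
Summed level in CPM (y axis, starting at 0) of each class in each of the 8 RNA libraries, with controls at left and KO at right in each panel, the mouse number beside each point and the mean ± SD as a bar. Snora, Snord and Rnu sums do not overlap between genotypes; Scarna sums and Rmrp do.

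Snora74a, known as U19, had the most counts of the Snora genes, with 23.6% of the class. Per kilobase of RefSeq gene length it was at 98.9 CPM per kb in controls (198 nt), below Snora61 at 130 CPM per kb (62 nt). It was at 27.6, 24.3, 17.1 and 9.36 CPM in controls 1, 3, 6 and 8 and at 6.18, 6.08, 3.15 and 6.24 CPM in KO 2, 4, 5 and 7. Every KO library was thus below the lowest control, with a log2 fold change of -1.84 ± 0.29 (SE, edgeR adjusted p = 0.00284).

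Snora23 had the largest fall of the tested members. Its level was 3.87, 3.17, 2.40 and 1.43 CPM in controls and 0.434, 0.287, 0.315 and 0.274 CPM in KO, so that all KO libraries lay far below the lowest control. The log2 fold change was -3.03 ± 0.36 (edgeR adjusted p = 0.000594), from 5 to 8 counts per KO library.

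Snora61 and Snora68 had the 2 smallest p-values of the set. Snora61 was at 9.26, 10.3, 7.37 and 5.18 CPM in controls and 1.14, 1.39, 1.64 and 1.15 CPM in KO (log2 fold change -2.60 ± 0.23, edgeR adjusted p = 0.000147). For Snora68 the controls had 6.48, 6.71, 5.21 and 4.08 CPM and the KO 0.868, 1.15, 0.694 and 1.15 CPM (-2.52 ± 0.21, edgeR adjusted p = 0.000124, the smallest among members). The genotypes did not overlap for either RNA.

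The other Snora genes with large falls were Snora31 (log2 fold change -2.94 ± 0.37), Snora81 (-2.81 ± 0.37), Snora5c (-2.72 ± 0.37), Snora70 (-2.62 ± 0.43), Snora21 (-2.47 ± 0.29) and Snora44 (-2.23 ± 0.44). Snora70 is counted with reserve, since genes of this kind have related copies elsewhere in the genome. DESeq2 gave it a log2 fold change of -2.67 but no adjusted p-value, so it could not be called there. Among RNAs with more counts, Snora78 went from 7.33 ± 2.22 to 2.12 ± 0.976 CPM and Snora7a from 6.68 ± 2.51 to 1.64 ± 0.129 CPM (SD, n = 4). Both were called lower, at edgeR adjusted p = 0.00208 and 0.000944. Snora16a (-0.67, edgeR adjusted p = 0.229) and Snora65 (-0.27, edgeR adjusted p = 0.741) were the Snora genes tested and not called.

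C/D box RNAs were also lower as a summed class. Summed over the 74 Snord genes, controls 1, 3, 6 and 8 were at 191, 170, 138 and 84.0 CPM and KO 2, 4, 5 and 7 at 40.7, 51.8, 32.3 and 49.0 CPM. The lowest control was 1.62-fold above the highest KO, and the KO mean was 29.8% of the control mean. Of 15 tested Snord genes, 9 were called lower, 4 were lower without a call and 2 were higher without a call.

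Snord22, known as U22 and needed for processing of 18S ribosomal RNA, held 33.3% of the counts of its class. Its level was 68.6, 55.3, 51.3 and 30.5 CPM in controls and 11.7, 13.6, 9.14 and 13 CPM in KO. The lowest control was above every KO library, and the log2 fold change was -2.11 ± 0.20 (edgeR adjusted p = 0.000193).

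Snord15a and Snord15b, methylation guides that lie in the same host, were both lower. Snord15b was at 41.6, 41.1, 27.8 and 16.4 CPM in controls and 6.13, 8.81, 4.98 and 9.19 CPM in KO (log2 fold change -2.11 ± 0.27, edgeR adjusted p = 0.000944). Snord15a was at 29.9, 26.7, 18 and 11.6 CPM in controls and 6.67, 7.95, 3.97 and 7.99 CPM in KO (-1.68 ± 0.27, edgeR adjusted p = 0.00296). In both, control mouse 8 was the lowest control and KO mouse 5 the lowest KO.

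Falls were also called for Snord67 (log2 fold change -2.76 ± 0.45), Snord8 (-2.18 ± 0.25), Snord17 (-1.76 ± 0.31) and Snord104 (-1.08 ± 0.19). Snord8 went from 9.60 ± 3.28 to 2.11 ± 0.321 CPM and Snord104 from 4.18 ± 0.676 to 1.98 ± 0.529 CPM (SD, n = 4). Snord2 (0.22 ± 0.36, edgeR adjusted p = 0.761) and Snord42b (0.29 ± 0.30, edgeR adjusted p = 0.594) were the 2 members with a higher fitted level in KO, and their genotypes overlapped. Snord42b ran from 0.436 to 0.826 CPM in controls and from 0.597 to 1.1 CPM in KO.

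Cajal body RNAs showed a smaller difference with overlapping libraries. The 9 Scarna genes summed to 190, 191, 134 and 87.9 CPM in controls 1, 3, 6 and 8 and to 107, 109, 54.1 and 109 CPM in KO 2, 4, 5 and 7. Control mouse 8 was below 3 of the KO libraries, and KO mouse 5 was far below the other 3. The KO mean was 63.0% of the control mean, and 2 of 6 tested Scarna genes were called lower.

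Scarna10, known as U85, which carries both box types and guides modification of U5, was the most abundant of the class. It was at 73.9, 67.6, 51.8 and 32.6 CPM in controls and 38.7, 35.3, 16.3 and 36.4 CPM in KO (log2 fold change -0.83 ± 0.25, edgeR adjusted p = 0.0616). Control mouse 8 was below the KO libraries of mice 2, 4 and 7, and the difference was not past the threshold over the 8 libraries with the filter on low counts. Scarna10 was called lower with the numbered prefix of the sample titles as a block (-0.81, edgeR adjusted p = 0.0348) and without control mouse 8 (edgeR adjusted p = 0.00566). It was also called lower without a filter on low counts, in mice 1 to 4 alone, and with control mouse 8 and KO mouse 5 both left out. With KO 2, 4 and 7 summed it was not called (-1.04, edgeR adjusted p = 0.166). Scarna6 was at 36.4, 38.2, 26.7 and 14.1 CPM in controls and 15.1, 15.6, 5.23 and 15.4 CPM in KO (-1.15 ± 0.31, edgeR adjusted p = 0.0363), with the same overlap, and it was not called by DESeq2. Scarna17 did not overlap, at 1.99 ± 0.771 and 0.662 ± 0.0719 CPM (SD, n = 4). Its log2 fold change was -1.57 ± 0.30 (edgeR adjusted p = 0.00736). Its call was lost with the similar libraries of KO 2, 4 and 7 summed, at nearly the same log2 fold change (-1.58, edgeR adjusted p = 0.0736). Scarna2, Scarna3a and Scarna13 had log2 fold changes of -0.30, -0.51 and -0.38 and were not called. These values moved with the libraries used: leaving out 1 library gave -0.50 to -0.05 for Scarna2 (nearest 0 without control 3), -0.77 to -0.30 for Scarna3a (nearest 0 without control 1 or KO 7) and -0.52 to -0.22 for Scarna13 (nearest 0 without KO 5). In mice 5 to 8 alone Scarna2 was at 0.04 and Scarna13 at -0.14, and in mice 1 to 4 alone they were at -0.51 and -0.55 and were called lower by edgeR.

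Both small nuclear RNAs that could be tested belong to the minor spliceosome, which removes a rare class of introns. Rnu12, the U12 RNA, was at 13.6, 11.3, 12.4 and 7.71 CPM in controls 1, 3, 6 and 8 and 2.44, 3.64, 1.83 and 3.72 CPM in KO 2, 4, 5 and 7. Rnu11, the U11 RNA, was at 3.38, 3.44, 3.36 and 3.14 CPM in controls and 1.57, 1.63, 1.51 and 1.92 CPM in KO. Neither overlapped between genotypes. The control coefficient of variation of Rnu11, 3.91%, was the smallest of the 44 tested members, from 62, 63, 56 and 57 counts. As the smallest of many values at such counts, it is no estimate of the spread between mice. The log2 fold changes were -1.93 ± 0.21 for Rnu12 (edgeR adjusted p = 0.000428) and -1.0 ± 0.14 for Rnu11 (edgeR adjusted p = 0.00164). With KO 2, 4 and 7 summed and control 1 and 3 summed, Rnu12 was still called and Rnu11 was not (edgeR adjusted p = 0.0842), nor was Rnu11 called in mice 5 to 8 alone (edgeR adjusted p = 0.223).

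The RNAs of RNase P and RNase MRP were the most abundant members and changed least among those called. Rpph1 held 64.7% and Rmrp 30.2% of all counts of the set. Rpph1 was at 3928, 4264, 5211 and 3432 CPM in controls and 3151, 3321, 2190 and 3145 CPM in KO (log2 fold change -0.51 ± 0.14, edgeR adjusted p = 0.0353), with no overlap but a narrow gap between control mouse 8 and KO mouse 4. Rmrp was at 1978, 2344, 2227 and 1375 CPM in controls and 1430, 1507, 1067 and 1436 CPM in KO (-0.54 ± 0.14, edgeR adjusted p = 0.0363), and control mouse 8 was below 3 KO libraries. Both lost their call when the library of any one of mice 1, 2, 3, 4, 6 or 7 was left out, as did Scarna6 and Snora52, and Rmrp also without mouse 5.

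Levels were compared between genes per length of the RefSeq entry. Per kilobase of RefSeq gene length, Rpph1 was at 12950 CPM per kb in controls and 9083 in KO, and Rmrp at 7203 and 4945. Scarna10 (71 nt) was at 795 and 446 CPM per kb, Scarna2 (61 nt) at 415 and 337, and Snord22 (126 nt) at 408 and 94.1. The order rests on these lengths, and whether each entry spans the full RNA was not tested. How well the libraries recover short RNAs was not tested either. Snord22 and Scarna2 were thus close in controls on this per-length scale, and Scarna2 was above Snord22 in KO.

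The called members shared their lowest control library. In all 32 called members the library of mouse 8 was the lowest control. The median log2 level of these 32, relative to each member's control mean, was 0.41, 0.29, -0.02 and -0.69 in controls 1, 3, 6 and 8. The KO medians were -1.97, -1.74, -2.33 and -1.69 for mice 2, 4, 5 and 7. KO mouse 5 was the lowest KO in 16 of the 32 and the highest KO in 7, for example for Snora78 (3.53 CPM against 1.3 to 1.92). Control 8 and KO 5 were also the libraries with the most choroid plexus and the least endothelial marker RNA of their genotype. Both were also lowest in their genotype for the 6 nuclear long RNAs. The sum of these RNAs was 9510 CPM in control 8 (others 12326 to 13691) and 10538 in KO 5 (others 14030 to 14664). The 14 noncoding host genes were lowest there too (871 and 802 CPM). The lists share Rian and Snhg11, so their sums are not separate observations. Snhg11 was at 230 CPM in control 8 (others 340 to 466) and 255 in KO 5 (others 538 to 556). The part of these differences in the members' levels was not tested. Since these 32 were chosen as lower in KO, the order of the genotypes here is fixed by that choice, and the values describe the spread within each genotype.

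**Figure D3:**
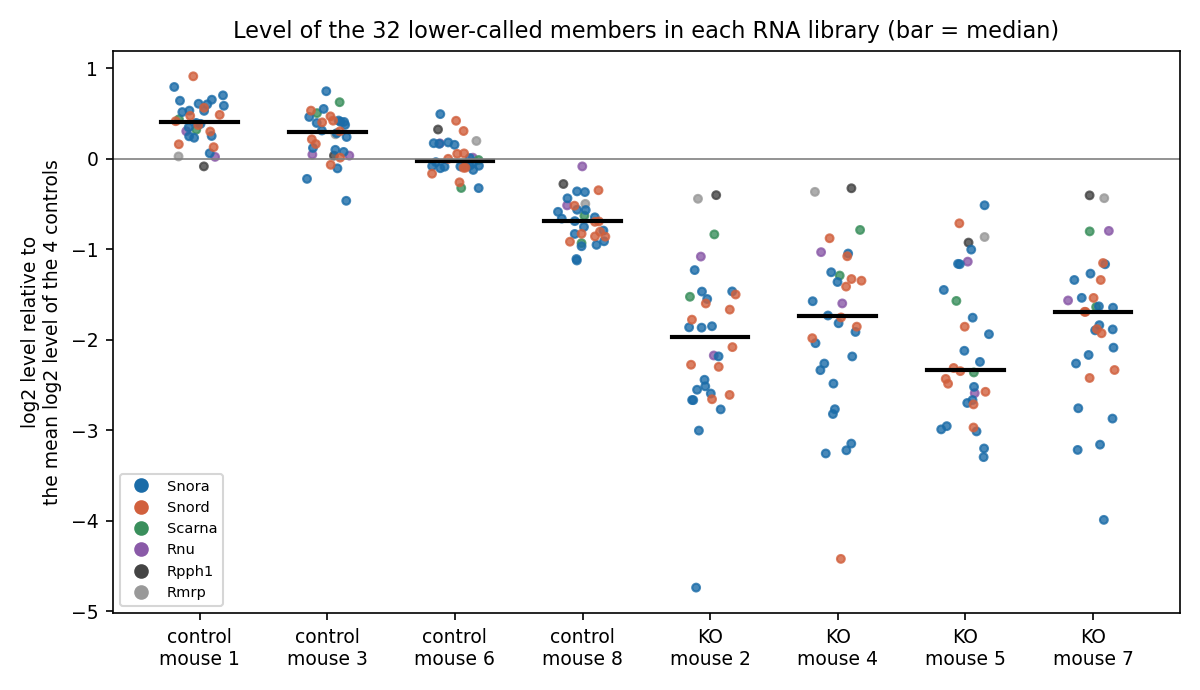
Log2 level of each of the 32 lower-called members in each RNA library (x axis), relative to the mean log2 level of that member in the 4 controls (y axis), with points coloured by class and a bar at the median. Control mouse 8 has a median of -0.69, the KO libraries have medians from -2.33 to -1.69.

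Library choice moved the number of calls but not their direction. Leaving out 1 library at a time gave 28 to 38 called members, all lower, and 28 of the 32 called members were called in all 8 of these fits. The highest of these counts, 38, came without control mouse 8. In a fit chosen after the data were seen, which left out both control mouse 8 and KO mouse 5, 40 members were called lower, all 32 among them, against 12% of all genes; the KO libraries in that fit are the 3 similar ones. With KO mice 2, 4 and 7 summed to 1 library, 21 members were called lower against 0.501% of all genes. The 11 called members lost there were Rmrp, Rpph1, Scarna6, Scarna17, Snora15, Snora28, Snora30, Snora43, Snora52, Snord17 and Snord104. With control mice 1 and 3 summed as well, 11 were called lower against 0.17% of all genes. These 11 also stayed called in every fit without 1 library: Rnu12, Snora7a, Snora21, Snora23, Snora31, Snora61, Snora68, Snora81, Snord8, Snord15b and Snord22.

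Sample titles begin with a numbered prefix, which is 9 for mice 1 and 2, 19 for mice 3 and 4, and 28 for mice 5 to 8. Within prefix 28 alone, 2 controls against 2 KO, 38 of the 42 members fitted were lower, with a median log2 fold change of -1.18. Called there were Snord22 (-1.87, edgeR adjusted p = 0.00385), Snora61 (-2.17, 0.00999), Snora68 (-2.30, 0.0125), Snord15b (-1.62, 0.0404) and Rnu12 (-1.83, 0.0404), against 0.117% of all genes called lower. Among mice 1 to 4, 48 of the 50 members fitted were lower with a median of -1.83, and 40 were called lower, against 11.7% of all genes. With the prefix as a block, 33 members were called lower, and no share of all genes was taken for that fit.

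Most members lie inside other genes, their hosts. In the RefSeq gene table, 116 members lay within 93 protein-coding or long noncoding genes, 83 of them only in protein-coding genes and 28 only in long noncoding genes. The table gives no strand for the members, so a host here is a gene that contains the member on either strand. Reads of unspliced host RNA that cover a member cannot be told apart from reads of the member. Both member and host were tested in 36 pairs, made of 34 members and 32 hosts.

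In most pairs the member had the lower fold change. Host log2 fold changes ran from -0.44 (Snhg9) to 0.26 (Tbrg4) with a median of -0.12, and the median of the members in these pairs was -1.82. In 33 of 36 pairs the member was lower than its host, and in 26 the signs were the same. Both were called in 5 pairs, the member alone in 20, the host alone in 1 and neither in 10. The difference between a member and its host was not tested. Some members of these pairs, such as Snora23, Snora31 and Snora81, passed the filter on low counts through the controls only. Pairs were not split by this, so the low side is in part set by the filter.

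**Figure D4:**
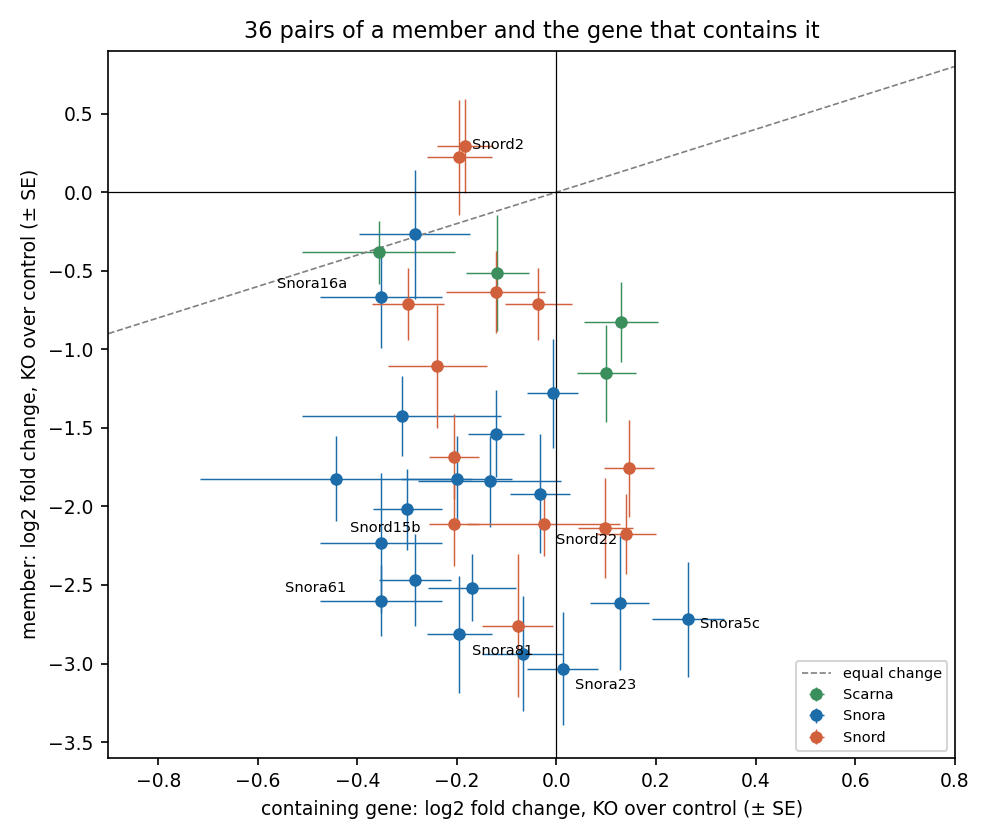
Log2 fold change of the containing gene (x axis) against that of the member (y axis) for 36 pairs, each with its standard error from edgeR; the axes have different scales and the dashed line marks equal change. Hosts lie between -0.44 and 0.26, and 33 of the 36 members lie below the line.

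Several hosts of strongly lower members are described by name. Snora23 (-3.03) lies in Ipo7, a nuclear import receptor, whose log2 fold change was 0.01 ± 0.07 (-0.14 among mice 1 to 4 alone, edgeR adjusted p = 0.0321). Snora31 (-2.94) lies in Tpt1 (-0.07), and Snord22 (-2.11) lies in Snhg1, a long noncoding host (-0.03). Snord67 (-2.76) lies in the microtubule regulator Ckap5 (-0.08), and Snord8 (-2.18) lies in the chromatin remodeler Chd8 (0.14). Snord8 also lies in the long noncoding gene Gm26590, which had no counts to measure. Snora5c (-2.72) lies in Tbrg4, which was called higher (0.26, edgeR adjusted p = 0.0388). None of the measured hosts named here was called lower over the 8 libraries.

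Where both were called lower, the fall of the host was the smaller value. Rps3, a ribosomal protein gene that holds Snord15a and Snord15b, had a log2 fold change of -0.21 (edgeR adjusted p = 0.0231). Rpl23 (-0.28, edgeR adjusted p = 0.03) holds Snora21 (-2.47), and Rpl32 (-0.30, edgeR adjusted p = 0.0199) holds Snora7a (-2.02). Of the 84 tested hosts, which include hosts of untested members, 14 were called lower and 2 higher, against 4.35% and 4.21% of all tested genes, with a median of -0.09. Their log2 fold changes ran from -0.89 (AA465934) to 0.48 (Mcmdc2). Ribosomal protein genes made up 23 of these 84, with 10 called lower and 0 higher. Outside the tested pairs, Snhg8 (-0.64) and Kansl2 (0.44, edgeR adjusted p = 0.00988) were among the hosts called.

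Members of the same host did not always move alike. Eif4a2, a translation initiation helicase with a log2 fold change of -0.19, holds Snora81 (-2.81 ± 0.37) and Snord2 (0.22 ± 0.36). Snhg12, a long noncoding host at -0.35, holds Snora61 (-2.60 ± 0.23), Snora44 (-2.23 ± 0.44) and Snora16a (-0.67 ± 0.32). The differences between members of one host were not tested.

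Promoters of the 3 hosts that hold more than 1 tested member are shown for comparison, each as 50 bases on either side of the RefSeq start (GRCm38.p6). Capitals mark TATA in the 50 bases before the start, with overlapping matches joined, and a run of at least 5 C or T that covers the start, as searched on the gene's strand.
Snhg12, chr4:132308628-132308727, plus strand: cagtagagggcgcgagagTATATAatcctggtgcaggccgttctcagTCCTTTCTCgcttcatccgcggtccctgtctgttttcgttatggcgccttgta
Rps3, chr7:99483660-99483759, minus strand: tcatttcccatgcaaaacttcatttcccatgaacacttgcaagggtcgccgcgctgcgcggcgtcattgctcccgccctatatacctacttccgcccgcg
Eif4a2, chr16:23107418-23107517, plus strand: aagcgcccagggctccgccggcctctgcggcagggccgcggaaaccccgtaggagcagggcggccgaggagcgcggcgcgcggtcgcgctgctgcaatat
Snhg12 has both matches, with a pyrimidine run of 9 bases, and Rps3 and Eif4a2 have neither. Of 32851 mouse promoters in the table, 10.1% had such a run and 9.08% had TATA. A match is a description of these letters and no measurement of a start site.

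The size of the change was also set beside gene length as RefSeq gives it, for example 71 nt for Scarna10 and 61 nt for Scarna2. Whether each entry spans the full RNA was not tested. Below 70 nt, 9 of 47 members were tested and 2 were called lower, with a median log2 fold change of -0.63. From 70 to 99 nt, 7 of 31 were tested and 6 called lower (median -2.14), and from 100 nt to under 200 nt, 23 of 42 were tested and 20 called lower (median -1.92). At 200 nt or more, all 5 members were tested and 4 were called lower (median -0.54). Across the 15 tested Snord genes the Spearman correlation of fold change with length was -0.73, and across the 19 Snora genes it was 0.14. Across all tested members it was -0.18. These are descriptions across genes of the same libraries. Part of the short members' counts can come from other RNA that covers the same bases, which was not tested.

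**Figure D5:**
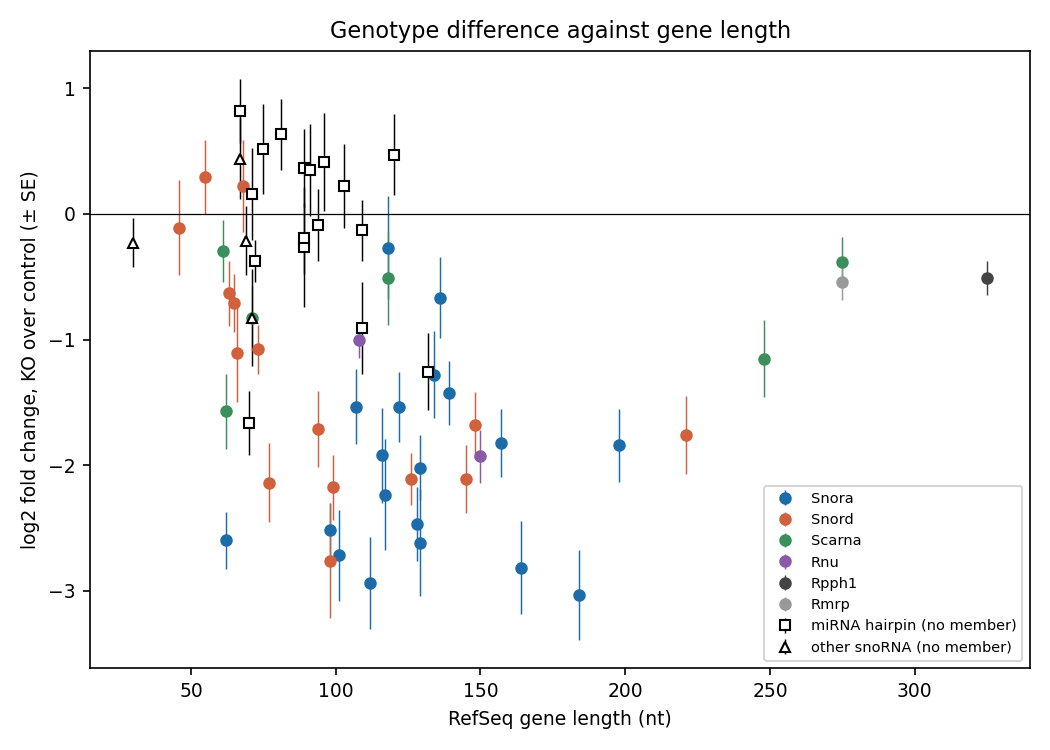
Log2 fold change with its standard error (y axis) against RefSeq gene length in nucleotides (x axis) for the tested members by class, with tested genes under 200 nt that are no members as open symbols. The 17 miRNA genes have a median of 0.16 and the 4 other snoRNA genes a median of -0.22, and the tested members of 70 to 99 nt have a median of -2.14.

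Short genes outside the set are given for comparison, and the difference from the members was not tested. Among tested genes under 200 nt outside the set, 2 of 17 miRNA genes were called lower (Mir1949 at -1.66 and Mir1983 at -1.26), 0 were called higher, and their median was 0.16. The 4 other snoRNA genes (AF357359, AF357425, AF357426 and DQ267100) had a median of -0.22, and 0 were called by edgeR or DESeq2 or had an unadjusted p under 0.05. Vaultrc5, the RNA of vault particles, was at 4.63, 4.47, 3.84 and 2.64 CPM in controls and 1.25, 1.63, 1.58 and 1.92 CPM in KO (log2 fold change -1.29 ± 0.20, edgeR adjusted p = 0.00277), without overlap. Terc, the RNA of telomerase and an H/ACA box RNA, was at 0.627 and 0.427 CPM (-0.49, edgeR adjusted p = 0.561).

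Genes of the proteins that work with these RNAs showed few changes. Of 6 tested H/ACA protein genes, among them Dkc1, the pseudouridine synthase, 0 were called by edgeR or DESeq2 and 0 had an unadjusted p under 0.05, with a median log2 fold change of 0.01. Of 5 C/D protein genes, Rrp9 was called lower (-0.28, edgeR adjusted p = 0.0259), and the methyltransferase Fbl was at -0.02. Among 11 protein genes of RNase P and MRP, 10 of the Cajal body and the SMN complex, 9 assembly factors and 10 genes of small RNA capping, export and trimming, edgeR and DESeq2 called 0. At an unadjusted edgeR p under 0.05 these 4 lists held 2, 1, 0 and 1 lower genes and 0, 0, 1 and 1 higher genes, in that order. The median of the RNase P and MRP proteins was -0.06, against -0.51 and -0.54 for their RNAs.

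Calls in the remaining gene lists are given beside the 4.35% of all tested genes called lower and the 4.21% called higher. Of 19 genes of Sm and U snRNP proteins, Snrpd2 was called lower (-0.64, edgeR adjusted p = 0.00426), and DESeq2 called 2 of the 19 lower. At an unadjusted edgeR p under 0.05, 5 of them were lower and 0 higher. Of 8 Lsm genes, 3 were called lower by edgeR, Lsm7 (-0.77), Lsm10 (-0.41) and Lsm3 (-0.27), and DESeq2 called 1 of the 8. Of 20 genes of small nuclear RNA transcription and processing, the Integrator subunit Ints8 was called higher (0.35) and Snapc5, a subunit of the factor that starts their transcription, lower (-0.24), and DESeq2 called 1 higher and 0 lower in this list. Among 14 tested noncoding host genes, Snhg8 (-0.64) and Gas5 (-0.30) were called lower, and of 6 nuclear long RNAs 0 were called by edgeR or DESeq2 (1 higher at an unadjusted p under 0.05), with Malat1 at 0.14.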

How the data were processed

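RNA libraries were made from rRNA-depleted total RNA with a strand-specific kit, per the labels' protocols. The authors deposited whole-number counts per gene without normalization, and the exon columns of the 8 RNA libraries were used. The submitters' processing notes name Bowtie2, STAR 2.5, featureCounts and Subread 1.4.6 and the builds mm9 and mm10, with no role; the annotation, strand setting and treatment of multiply matching reads are not given in the sources used here. Members, lists and tests were chosen with earlier results of these data known.

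All 23412 genes entered one fit: edgeR 4.0.16 (R 4.3.3) quasi-likelihood test, TMM, filterByExpr with a minimum count of 10, group means only, Benjamini-Hochberg over all 14566 genes tested, call at adjusted p under 0.05. Levels (CPM) are counts scaled by TMM-adjusted library totals. A standard error is the log2 fold change over the square root of F. In simulated counts for 14482 genes, edgeR recovered 88 of 90 genes changed by 1 and 110 of 110 changed by 2 on the log2 scale for KO against control. These totals were not split by expression level and give no recovery rate for low members such as Snord12. Symbols of 124 members matched RefSeq (GRCm38.p6), 1 matched by an older symbol and Rnu73b did not. Hosts were meant to be on the member's strand; since the table gives no member strand, containment on either strand was used. Named genes are Fmr1, Rpl22, Rpph1, Rmrp, the 6 members of each class with the highest mean CPM, the 10 largest called falls, the smallest p of each class, their hosts and up to 4 called genes per list and direction; other names were chosen after their values were seen. Alternatives were DESeq2 1.42.0, its size factors, plain library sizes, no filter, a minimum count of 30, each library left out, the title prefix as a block, similar libraries summed, mice 1 to 4 or 5 to 8 alone, and, chosen after seeing the data, control mouse 8 and KO mouse 5 both left out. Footprint columns hold no value for members and were not used.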

Additional observations from a re-analysis of the deposited data

Results flagged for a closer look

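A library lay far from the other 3 of its genotype in 8 of 76 sets of 4 values examined. Chance alone would flag about 1 in 20, or 3.8, if the sets and the libraries were independent. They were not: the summed Scarna level contains Scarna10, Scarna2 and Scarna6, and most member counts are from Rpph1. Setting 8 against 3.8 therefore does not measure an excess over chance. KO mouse 5 was the low library in 7 of the 8. Its summed Scarna level was 54.1 CPM (others 107 to 109), Rpph1 2190 CPM (others 3145 to 3321), Scarna10 16.3 CPM (others 35.3 to 38.7) and Scarna2 13.4 CPM (others 22.4 to 23.8). In the same library Scarna6 was at 5.23 CPM (others 15.1 to 15.6), Snora74a at 3.15 CPM (others 6.08 to 6.24), and the members took 0.327% of all counts (others 0.478% to 0.504%). The other 3 KO libraries are the ones that are close to identical. With so little spread among them, a modest difference of KO mouse 5 can be enough for a flag. Control mouse 6 had the lowest total count of the controls, 16649299 (others 18115062 to 18285047).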

How the results depend on the processing

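The direction of all 32 called members held in every alternative that fitted them, and 0 members were called higher in any. Against 1246 called genes and 32 called members, leaving out 1 library gave 516 to 1888 genes and 28 to 38 members. Summing KO mice 2, 4 and 7 gave 113 genes and 21 members; summing control mice 1 and 3 too gave 32 genes and 11 members. Mice 5 to 8 alone gave 19 genes and 5 members, and mice 1 to 4 alone 3717 genes and 40 members. Leaving out both control mouse 8 and KO mouse 5, an alternative chosen after seeing the data, gave 3712 genes and 40 members. A minimum count of 30 left 24 members, 20 of them called, and 13 of 18 host pairs with the same sign (26 of 36 before), since fewer genes were tested. DESeq2 called 31 members. It lost Scarna6, and it gave no adjusted p-value for Snora70. The title prefix as a block called 33 and no filter 34. Without Rnu12, the log2 ratio of the summed Rnu class was -0.91 in place of -1.64. Ipo7 reversed to -0.14 (edgeR adjusted p = 0.0321) in mice 1 to 4; the cause was not tested. No paired analysis was possible by mouse because the genotypes share no mouse number; the title prefix, which they do share, served as the block above. The host definition by strand was not run. At this depth 65 members with counts could not be tested.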
